A study of Mus musculus with 18 samples.

Results

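In brain RNA split by the length of its poly(A) tail, 508 mouse genes carried probe sets that differed in how strongly they favoured the long-tail over the short-tail fraction. These genes are described here, each by its probe set with the highest and its probe set with the lowest ratio of long-tail to short-tail signal. They were 508 (13.3%) of the 3808 genes that had at least 2 probe sets of adequate signal, out of 10003 genes with at least 1 such probe set and 17097 genes named by a single symbol on the array. Signal was adequate where the mean log2 value over all arrays was at least 6.5. For each probe set the difference of its log2 values, ELUTED minus WASH (the tail ratio), was averaged over 6 animals, and a gene was kept where its highest and lowest tail ratio differed by at least 1.0. That difference is called the gap, and both probe sets are called the high and the low one. The measured gap chose the genes, so its size and its direction are given as a description and were not tested.

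Cortex and striatum, dissected together, came from 6 mice aged 6 weeks: 2 WT, 2 CPEB4 GT/+ (heterozygous for an allele labelled GT) and 2 CPEB4 KO. CPEB4 binds target mRNAs in the cytoplasm and influences the length of their tails. The labels give neither the sex of the animals nor how the GT and KO alleles were made. From each animal total RNA (INPUT) was kept, and a column of poly(U) agarose gave 2 further fractions, WASH at 25% formamide, which favours short tails, and ELUTED at 90% formamide, which favours long ones, which made 18 arrays. Each array received cDNA from 5 ng of RNA amplified over 21 cycles.

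A gene can end its mRNA at more than one place, and the poly(A) tail is added at whichever end is used. Transcripts of one gene can thus differ in their last exon, in the length of their 3′ untranslated region, in retained introns and in tail length. A probe set reads only the stretch its probes match, so probe sets of one gene can report on different transcripts. Nuclear and incompletely spliced transcripts of a gene carry poly(A) tails too. Which transcripts each probe set detects was not analysed here, because probe positions and probe sequences were not used, and no sequence is printed for that reason.

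Cortical, striatal and glial markers were present in INPUT. The excitatory neuron gene Slc17a7 was at 10.8 on the log2 scale, the striatal gene Ppp1r1b at 9.84, the interneuron gene Gad1 at 10.7 and the myelin gene Mbp at 11.8. Cpeb4 itself had 2 probe sets of adequate signal and a gap of 0.94, just under the threshold. Its high probe set (1449931) read 8.30 and 8.33 in WT INPUT, 7.38 and 7.13 in CPEB4 GT/+ and 6.55 and 6.92 in CPEB4 KO. Its low probe set (1420618) read 8.15 and 7.62, then 7.31 and 7.0, then 6.62 and 6.91. The groups did not overlap at either probe set, in the order WT, CPEB4 GT/+, CPEB4 KO. The fractions of the animals differed in contrast: the SD of the tail ratio over the 15811 qualifying probe sets was 0.50 and 0.43 in WT, 0.44 and 0.79 in CPEB4 GT/+ and 0.62 and 0.78 in CPEB4 KO. Within a genotype the values below come from 2 animals, and the p-values measure only the spread between these animals.

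Across the 508 genes the median gap was 1.29 (quartiles 1.12 and 1.55), against 0.41 over all 3808 genes. The gap was at least 1.5 in 145 genes and at least 2.0 in 25. It was above 0 in 6 of 6 animals in all 508 genes and in 69.7% of the 3808 genes, and at least 1.0 in each of the 6 animals in 138 genes. More probe sets gave more chances of a wide gap: 8.06% of the genes with 2 qualifying probe sets passed the threshold, 18% with 3, 29.5% with 4 and 40.9% with 5 or more. Nearest inside the threshold were Ltn1, a ubiquitin ligase of stalled ribosomes, R3hdm1 and the potassium channel gene Kcna2, each with a gap of 1.00. Nearest outside it were Retreg1, a receptor for autophagy of the endoplasmic reticulum, Frmd4b and Fam117b.

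**Figure D1:**
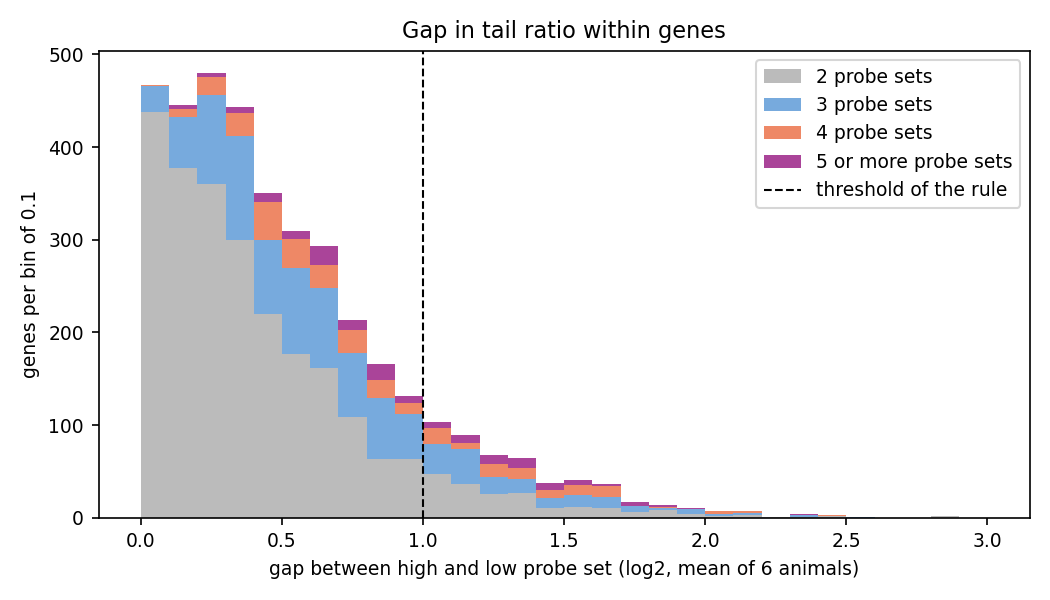
Number of genes (vertical axis) by gap between the high and the low probe set in log2 units (horizontal axis), stacked by the number of qualifying probe sets, for 3808 genes. The distribution falls off without a break at the threshold of 1.0 (dashed line), and genes with more probe sets make up more of its upper end.

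The gap was also read in animals that had no part in choosing the genes. When genes and their high and low probe sets were chosen on 5 animals, the gap in the left-out animal was above 0 in every chosen gene, for each of the 6 animals left out (434 to 581 genes chosen). Its median was 1.15 and 0.92 in the WT animals, 0.90 and 1.74 in the CPEB4 GT/+ animals and 1.37 and 1.76 in the CPEB4 KO animals. It was thus lowest in the animals whose tail ratios had the smallest SD.

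In 402 of the 508 genes (79.1%, against 36.0% of all 3808) the tail ratio was above 0 at the high and below 0 at the low probe set. On the scaled arrays the high probe set then had more signal in the long-tail fraction and the low one in the short-tail fraction. The arrays were scaled to each other, so 0 is not a neutral point. Over all qualifying probe sets the median tail ratio was -0.23 and -0.22 in WT and -0.16 and -0.39 in CPEB4 GT/+. In CPEB4 KO it was -0.24 and -0.32. In 87 of the 508 genes (17.1%, against 49.1% of all) both probe sets were below 0, and in 19 (3.74%, against 14.9%) both were above 0. In 129 genes the high probe set reached at least 0.5 and the low one at most -0.5.

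Outside of pseudogenes the widest gap belonged to Herc4, which encodes a HECT-type ubiquitin ligase. Its high probe set (1438814) had tail ratios of 1.18 and 1.39 in WT, 1.65 and 1.39 in CPEB4 GT/+ and 1.40 and 2.12 in CPEB4 KO. Its low probe set (1427032) had -1.33 and -0.92, then -0.90 and -1.61, then -1.23 and -1.75. Every animal had the high probe set above 0 and the low one below 0, and the gap was 2.81 ± 0.56 (SD, n = 6). In INPUT both probe sets were steady, at 8.35 to 8.52 and at 6.62 to 6.93.

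Jmjd1c encodes a protein of the JmjC histone demethylase family. At the high probe set (1439998) it read 1.20 and 1.46 in WT, 1.62 and 1.67 in CPEB4 GT/+ and 1.96 and 2.18 in CPEB4 KO. At the low one (1426900) it read -0.80 and -0.63, -0.77 and -0.99, and -0.97 and -1.20 in the same order. Neither probe set changed sign in any animal, and another probe set (1448049) lay between them at 0.40. The gap was 2.58 ± 0.53 (SD, n = 6). INPUT was 6.80 at the high probe set, close to the minimum, and 8.04 at the low one. 

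Rps15a-ps6 had the largest gap of all, 2.89 ± 0.83. It is named as a pseudogene of the ribosomal protein gene Rps15a, and both of its probe sets were designed on the same accession. A near-identical copy can share its probes, so this gene is uncertain. The high probe set stayed between 1.08 and 1.51 in the 6 animals, and the low one ran from -2.99 to -0.95.

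The other genes among the 15 with the largest gaps had gaps from 2.14 to 2.44. They were Zfp280d, a zinc finger gene; Ssbp2, a partner of LIM-domain transcription complexes; Cox16, an assembly factor of cytochrome oxidase; Ahctf1, a nuclear pore protein; the aminopeptidase gene Aopep; the mitochondrial ribosomal protein gene Mrpl41; the RNA-binding gene Strbp; Lemd3 of the inner nuclear membrane; Tmem219; Oga, which removes O-linked GlcNAc from proteins; Gmcl1; and Phf20l1, a Tudor-domain chromatin reader. In 14 of the 15 the gap was at least 1.22 in every animal. In Mrpl41 it fell to 1.04 in 1 CPEB4 GT/+ animal and reached 3.62 in 1 CPEB4 KO animal.

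In Oga the order of 4 probe sets showed how a single one stood apart. Its other probe sets read -1.12 (1422902), -0.79 (1422901) and -0.55 (1422900), and 1439081 read 1.05. The last was also the dimmest, with an INPUT level of 7.19 against 8.15 to 9.50 at the others. In Gmcl1 the 4 probe sets fell into pairs instead, at -0.82 and -0.73 against 1.15 and 1.33. In Strbp the 7 probe sets were spread from -1.49 to 0.81, and 4 of them lay between -0.83 and -0.02. Over the 309 genes with 3 or more qualifying probe sets, 338 of the 554 remaining probe sets were nearer to the low one and 216 nearer to the high one. All remaining probe sets were nearer to the low one in 147 genes and nearer to the high one in 92.

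**Figure D2:**
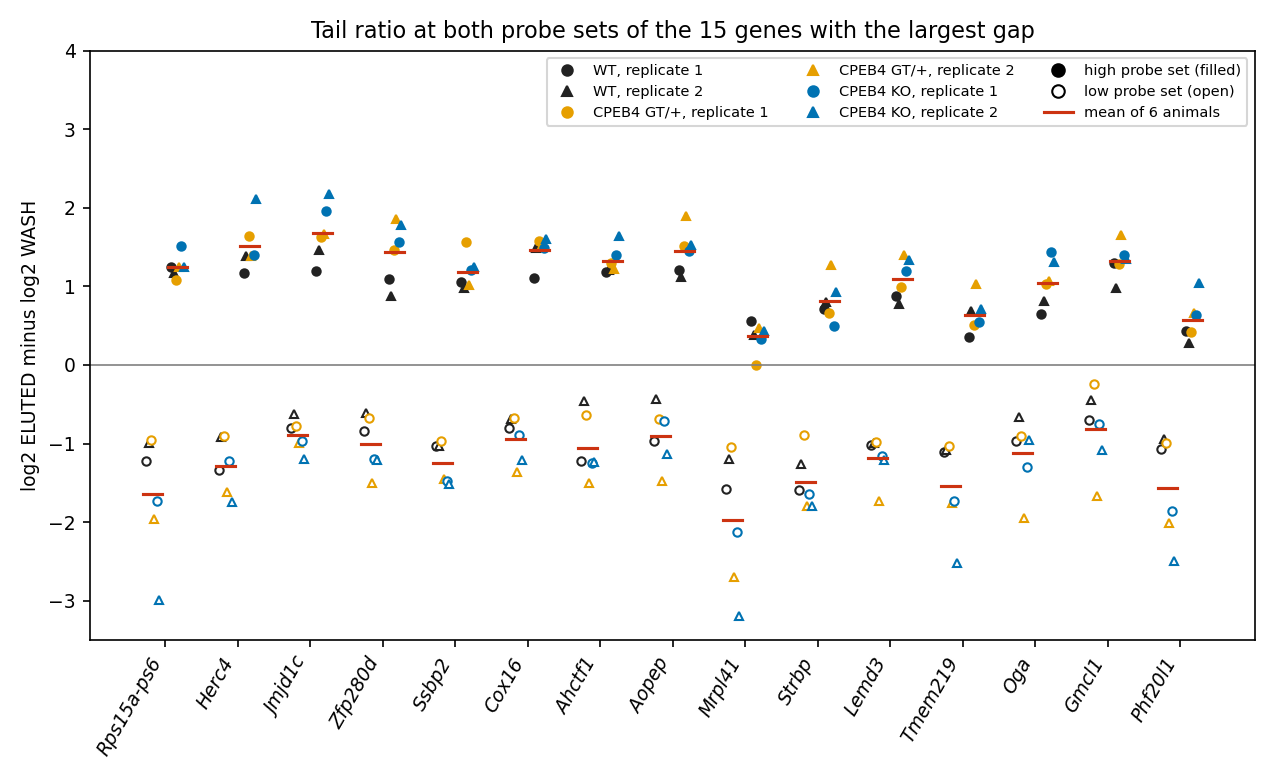
Tail ratio (log2 ELUTED minus log2 WASH, vertical axis) of the high (filled) and low (open) probe set of the 15 genes with the largest gaps. Each point is 1 animal, coloured by genotype and shaped by replicate, and red lines are means of 6 animals. High probe sets lie at or above 0 and low ones below 0 in every animal.

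Set against INPUT, both fractions contributed to the gaps. At the high probe set the median ELUTED minus INPUT difference was 0.19 and the median WASH minus INPUT difference was -0.30. At the low probe set they were -0.40 and 0.35. Over all 3808 genes the medians were -0.02 and -0.02 at the high probe set, and -0.19 and 0.28 at the low one. In 475 of the 508 genes (93.5%, against 56.5% of all) the probe sets differed in the direction of the gap in both fractions. These differences share their ELUTED and WASH arrays with the rule, so they describe the genes and were not tested.

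For Camk2a, the gene of a main synaptic calcium-dependent kinase subunit, the gap lay in WASH alone. The WASH minus INPUT difference was -1.68 at its high probe set (1441734) and 0.08 at its low one (1457311). The ELUTED minus INPUT difference was 0.08 and 0.45, so in ELUTED the order was turned. The ribosomal protein pseudogene Rps15a-ps6 differed in both fractions, at 0.42 and -0.83 for the high and -1.39 and 0.25 for the low probe set (ELUTED first).

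**Figure D3:**
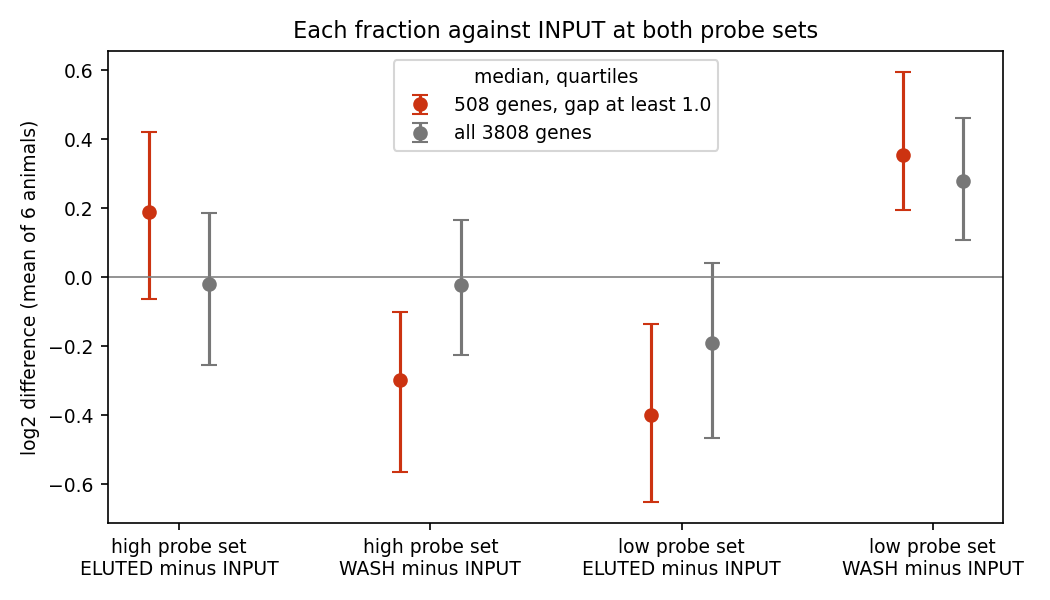
Log2 difference of each fraction from INPUT (vertical axis, mean of 6 animals) at the high and low probe sets, as medians with quartiles over 508 genes with a gap of at least 1.0 (red) and all 3808 genes (grey). By the medians of the 508 genes the high probe set lies above INPUT in ELUTED and below it in WASH, and the low probe set the other way round. This held at the high probe set in 331 genes (65.2%, against 30.1% of all) and at the low one in 411 (80.9%, against 63.7%).

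INPUT levels were read at both probe sets, although probe sets differ in how well they hybridise and a level difference between them is no isoform abundance. The median INPUT level was 7.57 at the high and 8.20 at the low probe sets of the 508 genes, and 8.25 and 8.30 over all 3808 genes. In 335 of the 508 genes (65.9%, against 48.5% of all) the high probe set had the lower INPUT level. Its mean over the arrays was under 7.0, close to the minimum of 6.5, in 145 genes (28.5%, against 15.5%), and for the low probe set in 51 (10.04%, against 12.2%).

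The widest INPUT difference with the high probe set dim was that of Sptbn1, the gene of a non-erythroid beta spectrin, at 6.67 against 11.30. The opposite case was Cnr1, the gene of the cannabinoid receptor CB1, with 11.70 at the high and 7.12 at the low probe set. Nonspecific control probe sets had means up to 5.61. How much low signal contributed to the gaps was not tested, and with a minimum of 7.5 in place of 6.5 the count was 216 of 2491 genes (8.67%).

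Both probe sets were designed on the same accession in 60 of the 508 genes (11.8%) and in 32.9% of all 3808. The high probe set was designed on an expressed sequence tag, by the letters of its accession, in 318 genes (62.6%, against 53.9%), and the low one in 287 (56.5%, against 58.3%). The high probe set carried the plain suffix _at, the array design's mark for probes not shared with other transcripts, in 430 genes (84.6%, against 70.8%). Control probe sets placed at the 3′ and 5′ ends of the same transcript gave smaller differences in tail ratio. They were not chosen for a gap, as the 508 genes were, and the part of probe position in the gaps was not tested. The 3′ minus 5′ difference was -0.22 for Actb (-0.29 to -0.13 over the animals), 0.04 for Gapdh and -0.13 for Pcx, and the Tfrc controls were under the level minimum.

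The 508 genes were next sorted by the function of their products, with lists drawn up by name. Earlier results of these data were known when the lists were made. The shares below therefore describe the lists and were not tested. Chromatin proteins held the largest share, with 9 of the 21 that had 2 qualifying probe sets (42.9%, against 13.3% of all genes) and a median gap of 0.86 over the 21. Their median number of qualifying probe sets was 3, and 18% of all genes with 3 passed. Zmynd8, a reader of histone marks, had 1.54 and 1.36 in WT, 1.77 and 1.82 in CPEB4 GT/+ and 1.72 and 2.06 in CPEB4 KO at its high probe set (1458617). At its low probe set (1426614) it had -0.27 and -0.13, -0.03 and -0.30, and -0.21 and -0.31. Every animal's high probe set was far above 0 and its low one slightly below it, so the gap of 1.92 ± 0.30 (SD, n = 6) lay mostly above 0. Another probe set (1456143) was between them at 0.43. INPUT levels of Zmynd8 were 9.90 at the high and 9.41 at the low probe set, both well above the minimum.

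In Phf20l1 the low probe set lay further from 0 than the high one, with means of -1.56 and 0.58, and another (1457264) was at -0.17. The high probe set (1456871) stayed between 0.27 and 1.04, and the low one (1449289) ran from -2.50 to -0.95, with a gap of 2.14 ± 0.91. Brd8, a bromodomain subunit of a histone acetyltransferase complex, had a gap of 1.87 ± 0.50, and Kmt2c, a histone H3 methyltransferase gene, one of 1.54 ± 0.55. INPUT at the high probe set was 6.78 in Brd8, close to the minimum, and 10.72 in Kmt2c. The probe sets of Kmt2c formed pairs at -0.61 and -0.42 against 0.83 and 0.93.

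Genes with known detained introns or poison exons, which keep part of their transcripts in the nucleus or send them to decay, had 7 of 29 among the 508 (24.1%, against 13.3% of all genes). Their median number of qualifying probe sets was also 3. Tia1, an RNA-binding protein of stress granules, had 0.72 and 0.88 in WT, 0.81 and 0.50 in CPEB4 GT/+ and 0.95 and 1.30 in CPEB4 KO at its high probe set (1431708). Its low probe set (1437934) had -1.09 and -0.52, -0.53 and -1.25, and -0.59 and -0.99. The signs held in each animal, and the gap was 1.69 ± 0.35 (SD, n = 6). Ogt, which adds the O-linked GlcNAc that Oga removes, had a gap of 1.43 ± 0.35. Its INPUT levels were alike at both probe sets, 10.22 and 10.31, and in the 6 animals they differed by 0.01 to 0.17. The splicing factor gene Srsf2 had a gap of 1.44 ± 0.46, with probe sets at 0.36 (INPUT 6.84) and -1.09 (INPUT 8.74). Srsf3, of the same family, differed in that all 6 of its probe sets were below 0, from -1.71 to -0.45.

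Genes with known alternative 3′ untranslated regions in brain had 6 of 34 among the 508 (17.6%). Gria2, an AMPA receptor subunit gene, was bright at both probe sets, with INPUT levels of 11.01 and 10.28. At the high one (1453098) tail ratios were 0.45 and 0.55 in WT, 0.36 and 0.62 in CPEB4 GT/+ and 0.70 and 0.88 in CPEB4 KO, and at the low one (1434146) they were -0.90 and -0.59, -0.54 and -0.72, and -0.86 and -1.10. The ranges did not overlap, and another probe set (1421970) lay between them at -0.04. Ntrk3, the gene of the neurotrophin receptor TrkC, had 3 probe sets at -0.37, -0.12 and -0.10 and 3 at 0.93, 0.95 and 0.99. In Cnr1 the gap of 1.58 ± 0.36 came from a high probe set near 0, at 0.19, and a low one at -1.39.

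Camk2a had a gap of 1.39 ± 0.32. Its 4 brightest probe sets, with INPUT levels of 10.65 to 12.35, had tail ratios close together, from 0.37 to 0.53. The others stood at 1.03 (1443876, INPUT 8.51) and 1.76 (1441734, INPUT 7.24).

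RNA-binding regulators of neurons had 4 of 31 among the 508 (12.9%), near the share over all genes. These were Tnrc6a of the microRNA silencing complex, with a gap of 1.30 ± 0.45, the splicing regulators Qk (1.27 ± 0.38) and Mbnl1 (1.23 ± 0.27), and Elavl4, a neuronal protein that binds AU-rich elements (1.15 ± 0.32). In Elavl4 both probe sets were below 0 in every animal, from -0.28 to -0.06 at the high and from -1.74 to -0.83 at the low one. In Tnrc6a 6 of 7 probe sets lay between -1.11 and -0.42, and only 1457295 was above 0, at 0.19.

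Of 9 cleavage and polyadenylation factors 1 was among the 508 (11.1%), Papola, the gene of the canonical nuclear poly(A) polymerase. Its gap was 1.27 ± 0.22, with INPUT levels of 7.63 and 7.66 at its high and low probe sets. Synaptic proteins had 3 of 29 (10.3%), Camk2a, Gria2 and Camk2d. The last of these, another kinase subunit gene, had a gap of 1.37 ± 0.24, with INPUT levels of 6.83 and 7.52 at its high and low probe sets.

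Ubiquitin ligases and their adaptors had 3 of 19 (15.8%). Beside Herc4 these were Birc6, a large ubiquitin-conjugating inhibitor of apoptosis (1.56 ± 0.49), and the cullin gene Cul4b (1.32 ± 0.45). In Birc6 3 probe sets lay between -0.15 and 0.08 and 1442495 stood alone at 1.40. Its INPUT level was 7.49, against 10.53, 6.94 and 9.12 at the others. Motor and cytoskeletal proteins had 4 of 30 (13.3%). These were the kinesin gene Kif21a (1.68 ± 0.52), Sptbn1 (1.5 ± 0.21), the microtubule plus-end protein gene Clip1 (1.23 ± 0.34) and Ank2, the ankyrin-B gene (1.16 ± 0.25). INPUT at the high probe set was 6.77 in Kif21a and 6.67 in Sptbn1, close to the minimum, and 8.20 in Clip1 and 8.14 in Ank2. Sptbn1 was among the steadiest, with its low probe set (1452143) between -0.08 and 0.07 and its high one (1441507) between 1.22 and 1.79 in the 6 animals. Among the tissue markers the striatal gene Rgs9, a regulator of G protein signalling, had a gap of 1.43 ± 0.28.

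**Figure D4:**
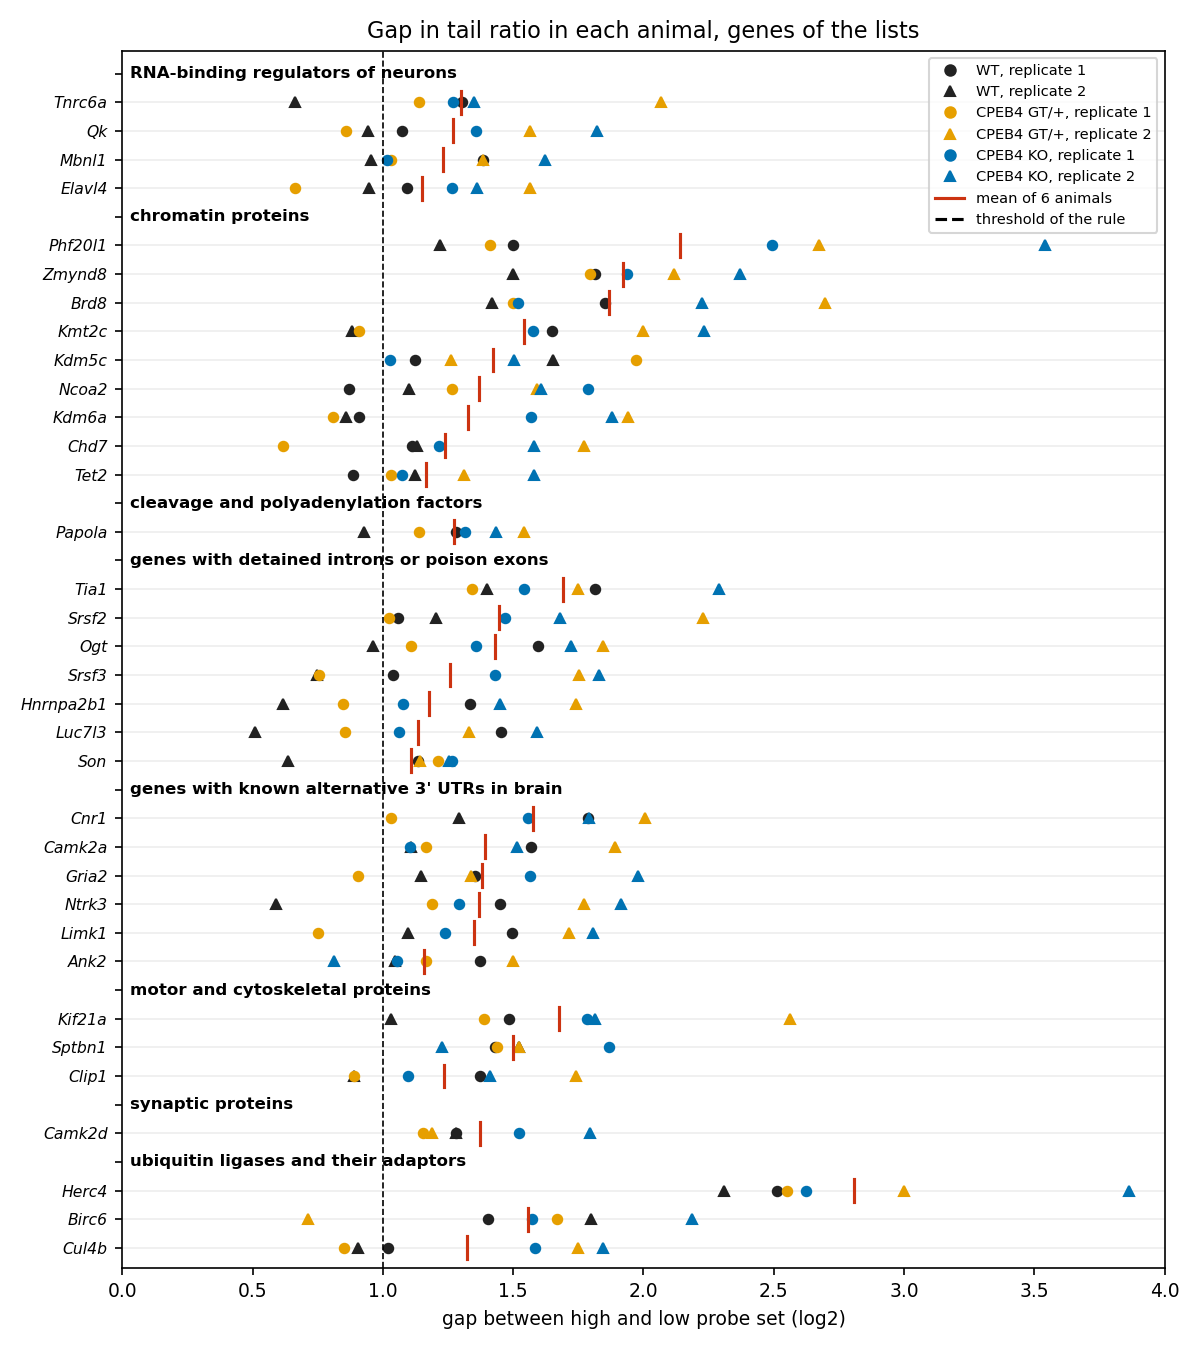
Gap between the high and the low probe set in log2 units (horizontal axis) in each animal, for the genes of the lists that are among the 508. Each gene is shown once, under the first list that holds it, and the tissue markers, with Rgs9, are left out. Points are animals, coloured by genotype and shaped by replicate, red lines are means of 6 animals, and the dashed line is the threshold of 1.0. All points lie above 0, and the WT animals and replicate 1 of CPEB4 GT/+ are often lowest.

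The first genotype comparison asked whether the gap itself differed with the Cpeb4 genotype. No gene passed the adjusted threshold of 0.05 in any of the 3 contrasts (limma, Benjamini-Hochberg over 3808 genes, 0% of genes called). The smallest adjusted p was 0.806 for CPEB4 KO against WT, 0.986 for CPEB4 GT/+ against WT and 0.996 for CPEB4 KO against CPEB4 GT/+. At an unadjusted p under 0.05, 208 of the 3808 genes (5.46%) had a wider gap in CPEB4 KO than in WT and 5 (0.131%) a narrower one. After each animal's tail ratios were scaled to the same SD, an alternative chosen after the data were seen, these shares were 1.97% and 2.89%. For CPEB4 GT/+ against WT 40 genes (1.05%) had a wider and 11 (0.289%) a narrower gap, and for CPEB4 KO against CPEB4 GT/+ 93 (2.44%) and 8 (0.21%). Counts over the 508 genes are not given here, because the gap over these same animals chose them. Their median difference between CPEB4 KO and WT was 0.46, against 0.15 over all genes, beside a median gap of 1.29 against 0.41. The same choice bears on this median, so it only describes the genes and was not tested.

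The per-animal medians ran with the spread of the tail ratios. Over the 508 genes the median gap was 1.18 and 0.97 in WT, 0.95 and 1.72 in CPEB4 GT/+ and 1.38 and 1.74 in CPEB4 KO. One CPEB4 GT/+ animal was the lowest of the 6, and the other lay between the CPEB4 KO animals. With the ratios scaled to the same SD the median difference was -0.08 for CPEB4 KO against WT and -0.07 for CPEB4 GT/+ against WT, so the direction turned. Without replicate 2 of CPEB4 GT/+ the unscaled median difference of CPEB4 GT/+ against WT was -0.09, and without replicate 1 it was 0.64, with 142 genes called. Each of these fits has 1 CPEB4 GT/+ animal, which is assumed to vary like the animals of the other genotypes, and the 142 calls rest on replicate 2, whose tail ratios had the largest SD of the 6. Leaving out replicate 1 turned the median of CPEB4 KO against CPEB4 GT/+ from 0.20 to -0.17.

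The smallest unadjusted p for CPEB4 KO against WT among the 508 genes belonged to Jmjd1c. Its gap was 2.00 and 2.09 in WT, 2.39 and 2.66 in CPEB4 GT/+ and 2.93 and 3.38 in CPEB4 KO. The groups did not overlap, but the difference of 1.11 ± 0.23 (SE) did not pass (adjusted p = 0.806, limma). Ing4, a chromatin reader gene, differed by 1.12 ± 0.25 and Dnm2, the dynamin 2 gene of endocytosis, by 1.19 ± 0.28, with the same adjusted p.

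**Figure D5:**
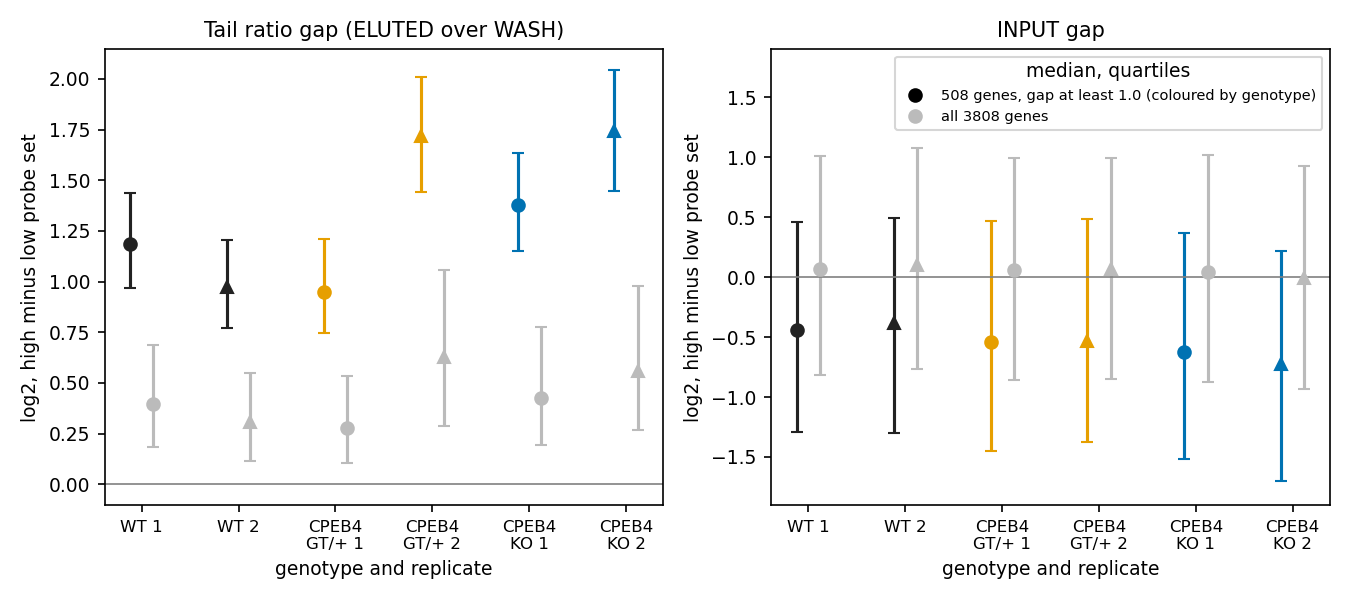
Tail ratio gap (left) and INPUT gap (right) in log2 units in each animal, as medians with quartiles over 508 genes (coloured by genotype, shaped by replicate) and over all 3808 genes (grey). The tail ratio gap is widest in CPEB4 GT/+ replicate 2 and CPEB4 KO replicate 2. The median INPUT gap is lowest in the CPEB4 KO animals, both over the 508 genes and over all genes.

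The second comparison used INPUT arrays, which had no part in the tail ratio. The INPUT gap is the log2 INPUT value of the high minus that of the low probe set, so a genotype difference means that both probe sets of a gene changed unequally in total RNA. In bulk tissue fewer cells of a type and less RNA per cell cannot be told apart. No gene passed the adjusted threshold (limma, Benjamini-Hochberg over 3808 genes, 0% called). The smallest adjusted p was 0.112 for CPEB4 KO against WT, 0.226 for CPEB4 GT/+ against WT and 0.107 for CPEB4 KO against CPEB4 GT/+. Without replicate 1 of CPEB4 KO, 2 genes were called in both contrasts with CPEB4 KO, Ccl27a and Yipf4, both with a wide gap. Without its replicate 2, 6 genes were called against WT and 1 against CPEB4 GT/+, none of them with a wide gap. The CPEB4 KO arm is then 1 animal, assumed to vary like the other genotypes, so these calls are the values of that animal.

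The INPUT gap was lower in CPEB4 KO than in WT at an unadjusted p under 0.05 in 156 of the 508 genes (30.7%, against 10.3% of all genes) and higher in 4 (1.23% of all). Without replicate 2 of CPEB4 KO it was lower in 87 of 450 genes (7.39% of all), and without replicate 2 of WT in 114 of 578 (6.59% of all). The difference was above 0 in 55 of the 508 genes (32.8% of all), and its median was -0.24, against -0.08 over all genes. For CPEB4 GT/+ against WT the INPUT gap was lower at this p in 33 genes (3.55% of all) and higher in 8 (1.08% of all), with a difference above 0 in 130 (38.8% of all) and a median of -0.09. Without replicate 1 of CPEB4 GT/+ the median over the genes then chosen was -0.07 (-0.04 over all). Without replicate 1 of WT it was -0.13 (-0.06 over all). For CPEB4 KO against CPEB4 GT/+ it was lower in 89 (6.22% of all) and higher in 8 (1.6% of all), with a difference above 0 in 117 (40.1% of all) and a median of -0.14. Here the median over the genes then chosen was -0.07 without replicate 2 of CPEB4 KO (-0.01 over all). Without replicate 2 of CPEB4 GT/+ it was -0.12 (-0.04 over all). The first contrast shares its WT animals with the second and its CPEB4 KO animals with the third, so they are not independent. The median INPUT gap over the 508 genes was -0.44 and -0.39 in WT, -0.54 and -0.53 in CPEB4 GT/+ and -0.62 and -0.73 in CPEB4 KO. The groups did not overlap, in the order of Cpeb4 level, and no p is given for a score over chosen genes. Over all genes the median was 0.0685 and 0.1011 in WT, 0.0597 and 0.0689 in CPEB4 GT/+ and 0.0422 and -0.0051 in CPEB4 KO. CPEB4 KO was thus lowest over all genes too, with smaller differences, while WT and CPEB4 GT/+ overlapped there. A lower INPUT gap in CPEB4 KO was therefore not particular to the 508 genes.

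The difference from the other genes lay at the high probe sets. In CPEB4 KO against WT the median INPUT difference of the 508 genes was -0.11 at the high probe sets, where 72.2% were below 0, and 0.12 at the low ones, where 21.7% were. Over all 3808 genes it was 0.02 with 43.0% below 0 at the high, and 0.10 with 24.9% below 0 at the low probe sets, so the low side was near the background. The 3′ minus 5′ INPUT difference of the Actb control was -0.46 and -0.47 in WT, -0.46 and -0.48 in CPEB4 GT/+ and -0.42 and -0.41 in CPEB4 KO. That of Gapdh was -0.07 and -0.05, -0.10 and -0.08, and -0.09 and -0.10 in the same order, and that of Pcx -0.17 and -0.20, -0.34 and -0.18, and -0.07 and -0.30. Among these, only the Actb values of CPEB4 KO lay apart from those of both other genotypes. The Tfrc controls, under the level minimum, gave -0.98 and -0.49 in WT and -0.92 and -0.76 in CPEB4 GT/+. In CPEB4 KO they gave -1.07 and -1.10, apart from both other genotypes but on the side opposite to Actb. The part of RNA quality in the result was not tested.

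Camk2a had the smallest p for CPEB4 KO against WT among the 508 genes. The high probe set read 7.44 and 7.78 in WT INPUT, 7.18 and 7.55 in CPEB4 GT/+ and 6.88 and 6.64 in CPEB4 KO, and the low one 11.45 and 11.56, 11.46 and 11.57, and 11.65 and 11.64. Both CPEB4 KO animals were lowest at the high and highest at the low probe set. The difference in INPUT gap was -0.99 ± 0.15 (SE, adjusted p = 0.112, limma). Hipk2, a nuclear kinase gene, had -0.75 ± 0.13 and Mtf2, the gene of a Polycomb-associated protein, -0.71 ± 0.12, with the same adjusted p. In Mtf2 the INPUT gap was 0.23 and 0.42 in WT, 0.12 and 0.19 in CPEB4 GT/+ and -0.35 and -0.40 in CPEB4 KO, without overlap between groups.

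The CPEB4 GT/+ animals stood apart in Ppih, the gene of a cyclophilin of the spliceosome. INPUT at its high probe set (1431505) was 7.06 and 7.06 in WT, 6.42 and 6.11 in CPEB4 GT/+ and 6.84 and 7.23 in CPEB4 KO. The INPUT gap was lower in CPEB4 GT/+ than in WT by a fitted difference of -0.85 ± 0.11 (SE, adjusted p = 0.226, limma), and higher in CPEB4 KO than in CPEB4 GT/+ by 0.94 ± 0.11 (adjusted p = 0.107). Neither passed the threshold, and the CPEB4 GT/+ values were under the level minimum of 6.5. Rnaseh2c, a subunit gene of ribonuclease H2, and Atp8a2, a neuronal lipid flippase gene, had -0.64 ± 0.12 and -0.63 ± 0.12 in CPEB4 KO against CPEB4 GT/+.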

How the data were processed

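Values are log2 signals that the authors made with RMA and deposited, per the submitters' processing notes; version and annotation are not given in the sources used here. The labels call the arrays PrimeView, whereas the probe set names contain PM, as on a different mouse array. RMA scales arrays to each other, so total amounts of RNA in a fraction were not measured. Of 45141 probe sets, 28898 had 1 gene symbol in the platform annotation, and 551 with several and 15692 with none, 104 controls included, were left out. All 508 genes matched the RefSeq table by Entrez identifier.

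Groups came from the labels. The tail ratio gap and the INPUT gap were fitted with limma 3.58.1 in R 4.3.3 (lmFit, contrasts.fit, eBayes without trend; genotype means, 6 animals, 3 residual degrees of freedom), for 3 contrasts each, two-sided, with Benjamini-Hochberg adjustment over 3808 genes. Precision is limited by the array number. The fit and the rule were tested on simulated data. Genes, lists and tests were chosen with earlier results of these data known. Named genes are Cpeb4, the 15 largest gaps, the 3 on each side of the threshold, up to 4 per list and the 3 smallest p per contrast among the 508; others named beside a count were chosen after their values were seen. Alternatives changed the level minimum, normalization, trend, denominator, probe set classes, threshold, block and animals.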

Additional observations from a re-analysis of the deposited data

How the results depend on the processing

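The count of 508 genes became 813 with a level minimum of 5.5 and 216 with 7.5, 145 with a gap of at least 1.5, 110 with ELUTED over INPUT (91 shared) and 195 with INPUT over WASH (142 shared). With 1 animal left out it ran from 434 to 581. Quantile normalization gave 518 (421 shared), removal of the trend on level 524 (414 shared) and the ratio scaled to one SD 512 (501 shared). With ELUTED over INPUT the gap turned to -0.42 in Cpeb4, -0.17 in Kcna2, -0.37 in Camk2a, -0.092 in Ppp3cb (the gene of a calcineurin subunit) and -0.40 in Hipk2, and the CPEB4 GT/+ minus WT difference of Ppp3cb to -0.33. With INPUT over WASH the gap of Atp5g1, an ATP synthase subunit gene, turned to -0.37. The cause was not tested.

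With the ratio scaled to one SD the median tail ratio gap over the genes was -0.080 for CPEB4 KO minus WT, -0.074 for CPEB4 GT/+ minus WT and 0.0004 for CPEB4 KO minus CPEB4 GT/+. With 1 animal left out the medians ran from 0.31 to 0.62, from -0.088 to 0.64 and from -0.17 to 0.57. The calls ran from 0 to 142 for CPEB4 GT/+ minus WT and stayed at 0 for the others. For the INPUT gap the medians ran from -0.31 to -0.16, from -0.13 to -0.06 and from -0.22 to -0.071, and the calls from 0 to 6, at 0 and from 0 to 2. The calls without replicate 1 of CPEB4 KO were Ccl27a and Yipf4 in both contrasts, and none of the calls without replicate 2 was among the genes with a wide gap. With a level minimum of 7.5, 2491 genes were tested, and high and low probe sets came only from probe sets that reached this minimum. In 2 contrasts 1 gene was then called, Spire1, an actin nucleator gene. It had -1.31 (adjusted p = 0.0034, limma) for CPEB4 KO minus WT and -1.00 (0.027) for CPEB4 KO minus CPEB4 GT/+. In the main fit the smallest adjusted p of these contrasts was 0.112 and 0.107 (limma). What made the Spire1 call differ from the main fit was not tested.

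The replicate block left 0 genes called in each of the 6 comparisons. Deviations of animals with the same number correlated at -0.24, -0.21 and 0.26 for the tail ratio gap over the 3 pairs of genotypes. The labels do not say that the number pairs animals, and whether same-numbered animals were processed together was not tested.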
